A study of Mus musculus with 6 samples.

Results

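The translation initiation and elongation factors of the mouse retina were the 57 protein-coding gene models, of 25124 in the table, whose symbols begin Eif1 to Eif6 or Eef1 to Eef2. Of 70 symbols with these prefixes, 13 were left out: the kinases and methyltransferases that act on the factors, and Eif2s3y. Retinas of C57BL/6J mice aged 4 months gave 6 poly-A RNA libraries, 3 of wild-type animals and 3 of Elovl2 C234W animals, whose fatty acid elongase Elovl2 carries an amino acid substitution. The comparison addresses which retinal transcripts differ in animals with this substitution. The libraries labelled WT1A, WT2A and WT2B are wild type, and FS3A, FS3B and FS5A were taken as C234W by elimination, so the direction of every difference rests on that assignment. The labels do not say that the libraries came from separate animals, and p-values then measure only the spread between these samples, which may be technical.

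Initiation factors load the initiator tRNA and the small ribosomal subunit onto a capped mRNA and find its start codon. Elongation factors then bring each aminoacyl-tRNA to the ribosome and move the ribosome along by codons. Many of these genes, like those of ribosomal proteins, belong to the class of mRNAs that begin with a cytosine and a run of pyrimidines (the 5' terminal oligopyrimidine, or TOP, class), whose translation follows mTORC1 activity. In the retina the largest group of cells is the rods, which renew their outer segments throughout life and make protein at a high rate.

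The sequence around the annotated transcription start is shown for 6 factors, to set the start letters beside the RNA values that follow. A RefSeq window on GRCm38.p6 (the mm10 assembly) matched 43 of the 57 factors by symbol, and all 43 start at the position in the deposited table. Each line below holds 10 bases before the annotated start and 20 from the start base onward, 5' to 3' on the gene's own strand, and capitals mark the unbroken run of C and T that contains the start base. The first 5 are the factors whose run reached 10 bases, and Eef2 is added as an abundant factor with no such run over its annotated start base. The Eef2 window ends in tctctt, downstream of that base, and whether Eef2 belongs to the TOP class was not tested.
Eif3f: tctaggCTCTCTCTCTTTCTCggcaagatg
Eef1a1: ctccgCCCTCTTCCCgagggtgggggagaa
Eif2s3x: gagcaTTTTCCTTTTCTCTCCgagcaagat
Eif3l: gagTTCTTCTTCCgctctctcccacgggct
Eif2b5: CTCTTTCTCTCCCTgcaactacaccttcgc
Eef2: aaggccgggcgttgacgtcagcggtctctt

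The windows lie at chr7:108934405-108934434 on the plus strand for Eif3f, chr9:78481705-78481734 on the minus strand for Eef1a1, chrX:94212632-94212661 on the minus strand for Eif2s3x, chr15:79075213-79075242 on the plus strand for Eif3l, chr16:20498807-20498836 on the plus strand for Eif2b5 and chr10:81176621-81176650 on the plus strand for Eef2. A run of at least 10 pyrimidines over the start base was present in 5 of the 43 factors (11.6%) and in 759 of the 27025 genes in the RefSeq table (2.81%). A start base C followed by at least 4 bases that were each C or T, the narrower form, was found on the gene's strand in Eif3f and Eif2s3x, 4.65% of the factors, against 3.01% of all genes (813). The 5 factors with the long run had log2 fold changes, C234W over wild type, of -0.89 (Eif3f), -0.80 (Eef1a1), -0.42 (Eif2s3x), -0.24 (Eif3l) and 0.20 (Eif2b5), so the run stood beside both the lowest value of the family and a positive one. A match is a description of letters at an annotated start, and the start used in these retinas was not measured.

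Expression is given in CPM, counts relative to the library total, scaled by the trimmed mean of M values (TMM), a factor for each library that corrects for differences in composition. Each library held between 14184093 and 19298613 counts in genes. Elovl2 itself stood at 142, 138 and 136 CPM in wild type and at 82.0, 90.1 and 116 CPM in C234W (log2 fold change -0.53 ± 0.16 SE, edgeR adjusted p = 0.10), a level that does not check the label because the allele is a point substitution. Rod markers (4 of 4 measured) summed to between 79750 and 127600 CPM in wild type and between 52490 and 72770 CPM in C234W, with no overlap, and those of bipolar cells (4 of 4) to between 487 and 630 CPM and between 773 and 828 CPM. The pigment epithelium markers reached 674 CPM in WT1A and between 62.1 and 158 CPM in the other 5 libraries. Of 3 lens markers, Cryaa and Crygs were under 1 CPM in every library. In bulk tissue, fewer cells of a type and less RNA per cell cannot be told apart. Short transcripts as a class were lower in C234W than long ones. With tested genes in 5 equal groups by length, the median log2 fold change of genes outside the family was -0.34 in the shortest group (up to 1671 bases) and 0.28 in the longest (4985 bases and more). Each factor is therefore set beside the 500 tested genes nearest to it in transcript length.

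The family as a whole was lower in C234W. Together the 57 genes summed to 13800, 14670 and 16410 scaled CPM in the wild-type libraries, in the order given above. In the C234W libraries they summed to 10350, 9857 and 10400 scaled CPM. Every C234W library lay below every wild-type library. Eef1a1 and Eef2 supplied 41.0 to 43.4% of that sum in wild type and 35.2 to 38.8% in C234W. The other 55 genes summed to 7977, 8662 and 9287 scaled CPM in wild type and to 6552, 6390 and 6367 in C234W, without overlap. The TMM factors were 0.869, 0.994 and 0.959 in wild type and 1.064, 1.093 and 1.038 in C234W. Without these factors the sum of the other 55 genes in WT1A lay below those in FS3A and FS3B. That separation therefore depends on the scaling.

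Of the 57 factors, 56 passed the filter on low counts. Eif4e1b, an eIF4E relative known from oocytes, had 0 counts in 5 libraries and 1 count in FS3A, where 3 counts would be 0.175 CPM. By edgeR's quasi-likelihood test with Benjamini-Hochberg adjustment over 14685 genes, 2 of the 56 fell (Eif3f and Eef1g) and 0 rose at an adjusted p under 0.05. The background over all tested genes was 1.28% lower and 0.184% higher, so 2 of 56 (3.57%) is too few to read against it. At an unadjusted p under 0.05, 27 factors were lower (48.2%) and 1 was higher, Eif2b4, against 13.5% and 11.9% of all genes. The 3 C234W values lay wholly below the 3 wild-type values for 32 factors (57.1%) and wholly above them for 1, Eif4g1, against 16.4% and 12.6% of all genes. In direction alone, 46 of 56 log2 fold changes were negative (82.1%), against 48.0% of all genes. The median was -0.36 over the factors and 0.023 over all genes. With scaling to total counts, which shifts the median of all genes to 0.205, 37 of 56 were negative and the median was -0.18. The 9 factors that turned positive with that scaling were Eif2b1, Eif2b3, Eif2d, Eif3c, Eif4e, Eif4e2, Eif4ebp2, Eif4g3 and Eif5b, whose negative values below therefore depend on the scaling.

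The number past the adjusted threshold depended on the tool and on which libraries entered. DESeq2 called 19 factors lower and 0 higher, where it called 7.24% and 4.71% of all genes. On simulated data with known changes, DESeq2 made 30 false calls among 169 and edgeR 11 among 131. Without WT1A, the library with the high pigment epithelium sum, edgeR called 26 lower and 1 higher (Eif2b4), against 9.39% and 9.13% of all genes. That fit leaves WT2A and WT2B as the wild-type libraries, which share a number in their names and were the closest pair of the 6 libraries in their counts, so its wild-type spread may come from 1 animal. With libraries of the same number summed, edgeR called 0 factors, with a smallest adjusted p of 0.38. Without any one of the other 5 libraries it called 0 factors. In those fits it also called 0 of all genes, except for 4 without FS5A. The family's median log2 fold change without WT1A was -0.45. WT1A stood apart from WT2A and WT2B in other marker sums too. They were 127600 against 79750 and 81860 CPM for rods and 63.1 against 167 and 157 CPM for ganglion cells. For horizontal cells they were 50.4 against 98.1 and 108 CPM, and for amacrine cells 250 against 352 and 403 CPM. The part of the pigment epithelium RNA, or of these other cell types, in the difference without WT1A was not tested.

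**Figure D1:**
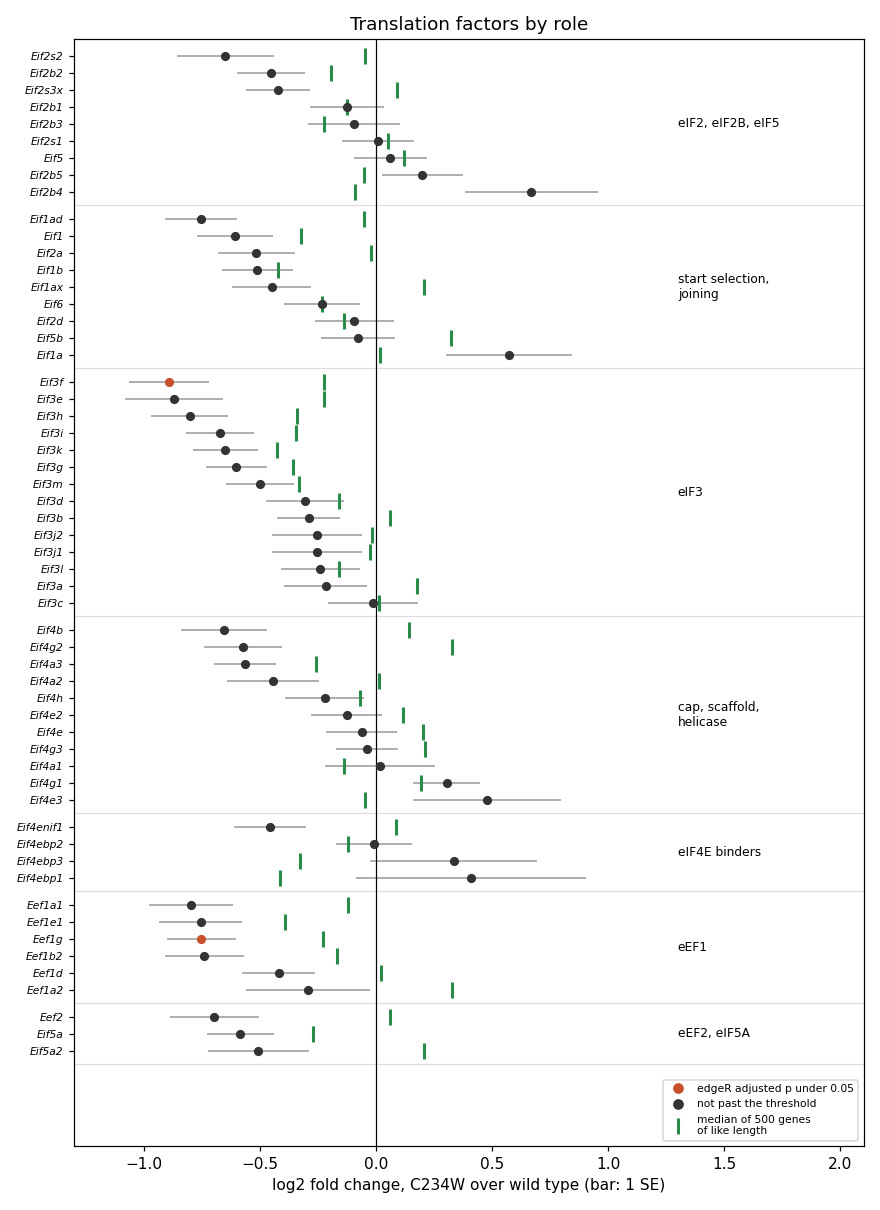
Log2 fold change of the 56 tested factors (x axis, C234W over wild type, bar 1 SE, 3 libraries per genotype), grouped by role on the y axis, with a green tick at the median of the 500 genes nearest in length. Points of the eEF1 and eIF3 groups all lie below 0, those of eIF2 and eIF2B lie on both sides, and the points past the adjusted threshold, in orange, are Eif3f and Eef1g.

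Beside genes of like length the factors were still lower, by a smaller amount. The factors ran from 838 to 7970 bases, with a median of 2341 against 3020 over all tested genes. Relative to the median of its 500 nearest genes in length, 44 factors were lower, 11 were higher and Eif2b1 stood at 0.000. The median difference was -0.26, compared with -0.36 before. Among their 500 neighbours, 14 factors were in the lowest 10% and 2 in the highest 10%. In each of the 5 length groups the median of the factors lay below that of the other genes: -0.59 for 18 factors against -0.34 in the shortest, -0.24 for 17 against -0.097 in the next, -0.21 for 8 against 0.051 in the third, -0.45 for 5 against 0.14 in the fourth and -0.15 for 8 against 0.28 in the longest. These are descriptions with no test, since the factors were not drawn at random. With a length trend removed from each library by loess, the median was -0.26 and 0 factors were called in either direction at an adjusted p under 0.05, where 0 of all genes were called and 24 factors were lower at an unadjusted p under 0.05.

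**Figure D2:**
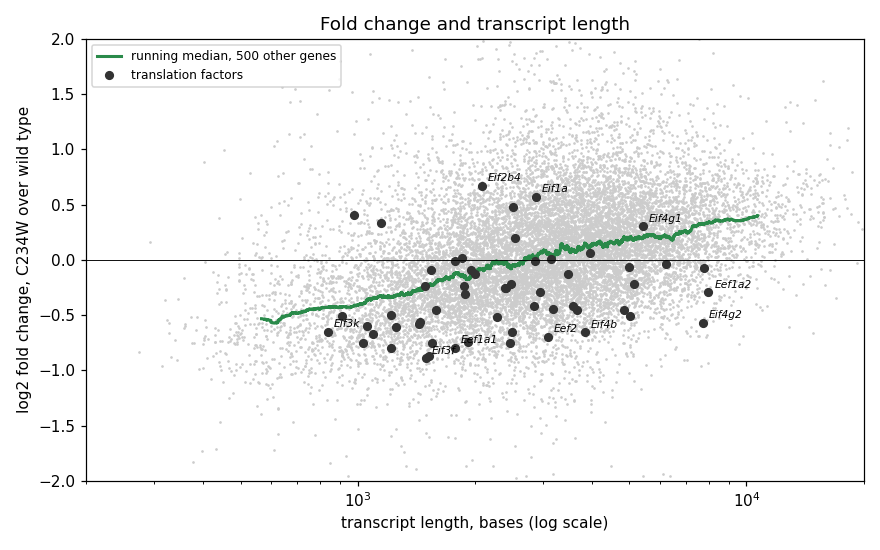
Log2 fold change (y axis, C234W over wild type) against transcript length in bases (x axis, log scale) for tested genes, in grey, with a running median of 500 genes outside the family in green and the 56 factors in black. The median rises with length, and 44 factors lie below the median of their neighbours, among them the long Eif4g2 and the short Eif3k. The y axis is limited to 2 in either direction, which leaves genes outside the family beyond the frame.

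The scaffold eIF3, the largest initiation factor, bridges the small ribosomal subunit and the eIF4F complex on the cap. It was represented by 14 gene models, of which Eif3j1 and Eif3j2 lie on 1 locus of chromosome 2 and held identical counts, so they are 1 signal. All 14 fold changes were negative, except that Eif3c was positive with total-count or upper-quartile scaling, with a median of -0.40, 1 passed the adjusted threshold, and 7 had an unadjusted p under 0.05 (13.5% of all genes). Each also lay below the median of its neighbours in length, with a median difference of -0.24.

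Eif3f (chromosome 7, 108934415 to 108941942 on mm10), a subunit of the MPN fold in the eIF3 core, was measured at 344, 379 and 466 CPM in wild type and at 208, 196 and 237 CPM in C234W. The lowest wild-type library was above the highest C234W library. It fell by 46.1% (log2 fold change -0.89 ± 0.17 SE, n = 3 per genotype, edgeR adjusted p = 0.049), and 5.6% of its neighbours in length were lower. The call was lost on leaving out any library except WT1A, without which the log2 fold change was -0.98 (edgeR adjusted p = 0.013). It was also lost with RLE, upper-quartile and total-count scaling (edgeR adjusted p = 0.0503, 0.051 and 0.058), with the length trend removed (0.13) and with libraries of the same number summed (0.38). In the fits that lost it, edgeR called 0 of all genes, or 4 without FS5A.

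Eif3e and Eif3h showed differences of about the same size without passing the threshold. Eif3e, a subunit of the PCI fold, stood at 109.9, 157 and 179 CPM in wild type and at 72.3, 74.7 and 97.5 CPM in C234W (log2 fold change -0.87 ± 0.21 SE, edgeR adjusted p = 0.063). Eif3h, the second subunit with the MPN fold, stood at 293, 344 and 347 CPM and at 202, 157 and 205 CPM (-0.80 ± 0.17 SE, edgeR adjusted p = 0.052). In neither did the genotypes overlap. Both were also low beside genes of their length, with 5.0 and 10.2% of neighbours below them.

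The small subunits Eif3i, Eif3k, Eif3g and Eif3m had log2 fold changes of -0.67, -0.65, -0.60 and -0.50, with adjusted p between 0.055 and 0.090 by edgeR. Eif3k, the shortest of the family at 838 bases, stood at 108.1, 109.1 and 108.6 CPM in wild type and 73.2, 61.8 and 72.7 CPM in C234W. The genotypes did not overlap in any of the 4. Beside genes of like length they stood nearer the middle, with 22.0 (Eif3i), 29.2 (Eif3k), 30.4 (Eif3g) and 33.8% (Eif3m) of neighbours lower.

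The large core subunits showed smaller fold changes before length was considered. Eif3b, the RNA-recognition scaffold of the eIF3b-g-i module, stood at 85.5, 93.4 and 81.2 CPM in wild type and at 69.8, 69.3 and 73.8 CPM in C234W, without overlap (-0.29 ± 0.14 SE, edgeR adjusted p = 0.22). Eif3a, to which the PCI subunits attach, had -0.22, Eif3d, which can itself bind the cap, -0.31, and Eif3l -0.24, each with overlapping genotypes. Eif3j1, the gene of the loosely bound subunit j, had -0.255 on a low level of 13.5 against 11.3 CPM. Eif3c, a core subunit, was at 160, 112 and 128 CPM in wild type and at 117, 160 and 119 CPM in C234W (log2 fold change -0.013 ± 0.19 SE). Relative to genes of like length, Eif3a and Eif3b had 16.4 and 19.8% of neighbours lower, smaller shares than the small subunits above. Eif3j1, Eif3d, Eif3l and Eif3c had 30.4, 38.2, 43.6 and 45.6%. Thus subunits known to sit in 1 complex ranged from -0.89 to -0.013. As differences from genes of like length they ranged from -0.67 (Eif3f) to -0.027 (Eif3c).

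**Figure D3:**
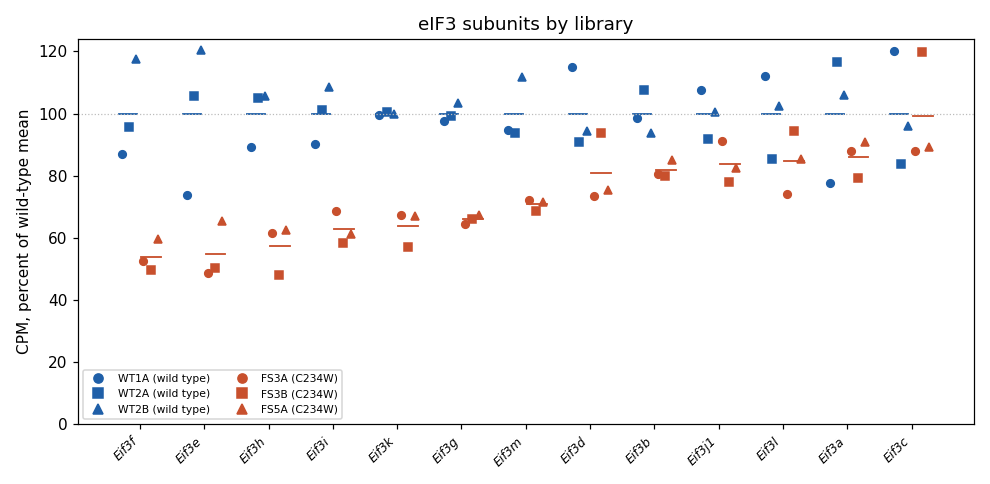
CPM of 13 eIF3 genes in each library as a percent of the gene's wild-type mean (y axis), with Eif3j1 standing for the shared Eif3j locus; short lines are group means of 3 libraries. From Eif3f to Eif3m the orange C234W points lie below all blue wild-type points, while the ranges of Eif3c coincide.

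The eEF1 complex delivers aminoacyl-tRNA to the ribosome: eEF1A carries the tRNA as a GTPase, and eEF1B2, eEF1D and eEF1G form the exchange complex that reloads it. The 6 genes with an Eef1 symbol, Eef1e1 among them, had the lowest median of the roles before length was considered, -0.75. All were negative under each of the 4 scalings tried. In 5 of 6 the C234W values lay wholly below and the unadjusted p was under 0.05, against 16.4% and 13.5% of all genes, and 1 passed the adjusted threshold (1.28% of all genes). All 6 lay below the median of their neighbours in length, 4 of them in the lowest 10%, with a median difference of -0.55. By that measure the 3 genes of translocation and eIF5A were lower, at -0.71.

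Eef1a1, the general eEF1A gene (chromosome 9, 78478454 to 78481724), was the most abundant factor per kilobase of transcript, at 1867 CPM per kb in wild type. It was measured at 2848, 3418 and 3700 CPM in wild type and at 1919, 1845 and 1977 CPM in C234W. The groups were far apart, with the highest C234W library below the lowest wild-type one. The log2 fold change was -0.80 ± 0.18 SE (n = 3 per genotype, edgeR adjusted p = 0.058; DESeq2 adjusted p = 3.67e-04), and 4.0% of its neighbours in length were lower. Eef1a1 has many processed copies in mammalian genomes, and the unique tags counted here can miss reads that match them.

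Eef1a2, the form of neurons and muscle, was at 314, 499 and 559 CPM in wild type and at 311, 500 and 309 CPM in C234W. Its groups overlapped, with WT1A beside FS3A and FS5A and FS3B beside WT2A (log2 fold change -0.29 ± 0.27 SE, edgeR adjusted p = 0.52). The ratio of Eef1a2 to Eef1a1 per kb was 0.0246, 0.0326 and 0.0337 in wild type and 0.0361, 0.0605 and 0.0349 in C234W. It was higher in each C234W library than in each wild-type one (exact two-sided permutation p = 0.10, the smallest that 3 against 3 allows, and 0.35 after Benjamini-Hochberg adjustment over 7 ratios). No change of Eef1a2 itself was called. These genes differ in length, 7970 bases for Eef1a2 and 1779 for Eef1a1. A ratio per kb does not remove the trend of fold change with length. Relative to genes of like length Eef1a2 stood at -0.62 and Eef1a1 at -0.67, with 6.4 and 4.0% of neighbours lower. The part of length in the higher ratio was not tested.

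Eef1g (chromosome 19, 8967041 to 8978180), the scaffold of the exchange complex, was at 109.9, 123 and 140.2 CPM in wild type and at 77.6, 72.6 and 71.2 CPM in C234W. All C234W values were below all wild-type values. It fell by 40.6% (log2 fold change -0.75 ± 0.15 SE, n = 3 per genotype, edgeR adjusted p = 0.0497), so its call stands at the threshold. Leaving out any library except WT1A ended it, and without WT1A the adjusted p was 0.013. RLE, upper-quartile and total-count scaling also ended it (edgeR adjusted p = 0.0512, 0.0537 and 0.0714), as did removing the length trend (0.13) and summing libraries of the same number (0.38). These were the same fits that ended the Eif3f call, with 0 of all genes called, or 4 without FS5A.

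Eef1b2, the exchange factor for eEF1A, stood at 154, 202 and 187 CPM in wild type and at 120.4, 93.3 and 112 CPM in C234W (-0.74 ± 0.17 SE, edgeR adjusted p = 0.058). Eef1e1, grouped here by its symbol and whose product belongs to the multisynthetase complex of tRNA synthetases, stood at 24.8, 31.2 and 29.9 CPM and at 18.6, 15.2 and 17.1 CPM (-0.76 ± 0.18 SE, edgeR adjusted p = 0.061). Eef1d, the other exchange subunit, had -0.42 ± 0.16 SE (edgeR adjusted p = 0.15). None of the 3 overlapped between genotypes.

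Translocation and the factor eIF5A, which relieves stalled ribosomes, gave 3 genes with negative values under the same 4 scalings. Eef2 (chromosome 10, 81176631 to 81182509), the GTPase that moves the ribosome by a codon, was at 2980, 2594 and 3424 CPM in wild type and at 1878, 1623 and 2054 CPM in C234W. The groups did not overlap (log2 fold change -0.70 ± 0.19 SE, edgeR adjusted p = 0.079; DESeq2 adjusted p = 0.0060). At 3084 bases Eef2 had neighbours with a median of 0.062, and 4.0% of them were lower.

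Eif5a, the general gene, was at 365, 372 and 394 CPM in wild type and at 270.1, 251 and 233 CPM in C234W, without overlap (-0.585 ± 0.14 SE, edgeR adjusted p = 0.064). Eif5a2, its less abundant relative, was at 36.2, 57.5 and 62.1 CPM and at 35.0, 40.6 and 34.0 CPM (-0.51 ± 0.22 SE, edgeR adjusted p = 0.19), where WT1A fell inside the C234W range. The ratio of Eif5a2 to Eif5a overlapped between genotypes (exact two-sided permutation p = 0.80, 0.80 after adjustment over the 7 ratios), with a difference of 0.11 on the log2 scale. Relative to genes of like length Eif5a2 (5019 bases) was the lower of the pair, at -0.71 with 5.2% of neighbours lower. Eif5a (1436 bases) was at -0.31 with 22.4% lower.

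**Figure D4:**
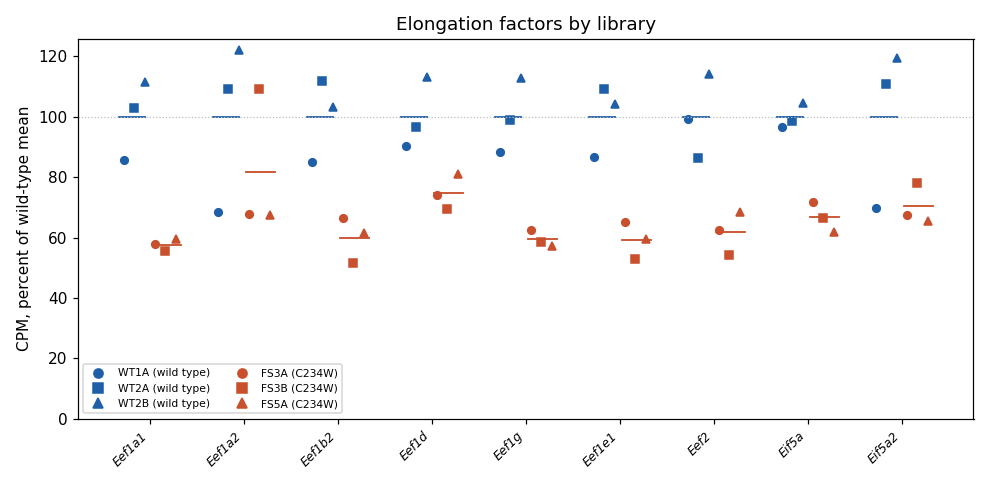
CPM of the 9 elongation genes, including Eif5a and Eif5a2, in each library as a percent of the gene's wild-type mean (y axis); short lines are group means of 3 libraries. Blue and orange points are apart for all but Eef1a2, where FS3B stands with WT2A, and Eif5a2, where WT1A stands with the C234W libraries.

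Start selection and subunit joining are the work of eIF1 and eIF1A, which hold the small subunit open for scanning, and of eIF5B, which joins the large subunit. Of the 9 genes in this role, 8 were negative (6 with total-count scaling), 5 had an unadjusted p under 0.05 (13.5% of all genes were lower at this p) and 0 passed the adjusted threshold (edgeR), with a median of -0.45. Without WT1A, edgeR called 5 of them lower, against 9.39% of all genes. Relative to genes of like length 7 of the 9 were lower, with a median difference of -0.29.

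Eif1, the most abundant per kb of this group, was at 541, 546 and 618 CPM in wild type and at 430, 334 and 356 CPM in C234W (-0.61 ± 0.16 SE, edgeR adjusted p = 0.076). Its relative Eif1b was at 104, 128 and 130.0 CPM and at 91.0, 86.7 and 76.7 CPM (-0.51 ± 0.15 SE, edgeR adjusted p = 0.095). Neither overlapped between genotypes, and their ratio was 0.29 in wild type and 0.31 in C234W (geometric means), with overlapping groups. For its length Eif1b was ordinary, with 41.0% of neighbours lower, and Eif1 had 21.6% lower. With the length trend removed Eif1b had -0.11 (edgeR adjusted p = 0.70). Eif1ad, a nuclear protein with an eIF1A-like domain, was the lowest of this role at 56.7, 69.5 and 72.8 CPM and at 38.9, 38.1 and 41.0 CPM (-0.755 ± 0.16 SE, edgeR adjusted p = 0.052).

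The pair of eIF1A genes had fold changes of opposite sign. Eif1ax, on the X chromosome, stood at 149, 192 and 209 CPM in wild type and at 132, 147 and 124 CPM in C234W, where the highest C234W value lies just under the lowest wild-type one (-0.45 ± 0.17 SE, edgeR adjusted p = 0.15). Eif1a stood at 75.7, 63.5 and 58.1 CPM in wild type and at 138, 95.2 and 60.7 CPM in C234W, with overlap (0.57 ± 0.27 SE, edgeR adjusted p = 0.22). Their ratio per kb was 0.857, 0.557 and 0.470 in wild type and 1.76, 1.09 and 0.826 in C234W. WT1A fell just above FS5A, so the ratios overlapped (exact two-sided permutation p = 0.20, 0.35 after adjustment over the 7 ratios). Of the remaining members, Eif2a, an alternative carrier of initiator tRNA, had -0.515, Eif6, which keeps the large subunit from joining, -0.23, Eif2d, a factor of reinitiation and recycling, -0.093, and Eif5b -0.076.

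The ternary complex of eIF2, GTP and initiator tRNA, with its exchange factor eIF2B and its GTPase activator eIF5, is the step that eIF2 kinases control under stress. This role was mixed: 5 of 9 genes were negative and the median was -0.095 (3 of 9 and 0.093 with total-count scaling), 3 were lower and 1 higher at an unadjusted p under 0.05 (13.5% and 11.9% of all genes), and 0 passed the adjusted threshold (edgeR). DESeq2 also called 0 of them.

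The subunits of eIF2 differed among themselves. Eif2s2, the beta subunit, stood at 40.5, 61.5 and 66.8 CPM in wild type and at 35.0, 39.6 and 32.9 CPM in C234W (-0.65 ± 0.21 SE, edgeR adjusted p = 0.11). Eif2s3x, the gamma subunit, stood at 61.6, 60.2 and 61.4 CPM and at 46.3, 46.7 and 43.8 CPM (-0.42 ± 0.14 SE, edgeR adjusted p = 0.11). Eif2s1, the alpha subunit on which the kinases act, had 30.5 ± 1.65 CPM in wild type and 30.7 ± 2.45 CPM in C234W (SD, n = 3; log2 fold change 0.009). The genotypes were apart for the beta and gamma subunits and overlapped for the alpha subunit.

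Among the 5 eIF2B subunits the direction was split. Eif2b4, the delta subunit, had the highest fold change of the family, at 46.4, 25.9 and 23.5 CPM in wild type and at 63.4, 49.3 and 39.4 CPM in C234W. WT1A lay inside the C234W range (0.67 ± 0.29 SE, edgeR adjusted p = 0.19), and without it the log2 fold change was 1.04 (edgeR adjusted p = 0.022). Eif2b5, the catalytic epsilon subunit, had 0.20 with overlap. Eif2b2, the beta subunit, stood at 36.5, 40.4 and 39.0 CPM and at 27.6, 29.4 and 27.7 CPM, without overlap (-0.45 ± 0.15 SE, edgeR adjusted p = 0.11), Eif2b1 had -0.125 and Eif2b3 -0.095. Eif5 stood at 195, 254 and 232 CPM in wild type and at 244, 218 and 249.5 CPM in C234W (0.062 ± 0.16 SE), with overlap.

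Cap recognition by eIF4E, the scaffold eIF4G and the helicase eIF4A form eIF4F, the complex that opens the 5' end of the mRNA. The 11 tested genes of this role had a median of -0.13 (0.061 with total-count scaling), with 3 lower at an unadjusted p under 0.05 (13.5% of all genes) and 0 past the adjusted threshold (edgeR). They are long, with 3466 bases at the median, and beside genes of like length 8 of 11 were lower, with a median difference of -0.25.

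The scaffolds parted most clearly. Eif4g2 (chromosome 7, 111067985 to 111083030), a scaffold that lacks the eIF4E site and serves cap-independent initiation, was at 1544, 1612 and 1890 CPM in wild type and at 1171, 1107 and 1116 CPM in C234W. No C234W library reached the lowest wild-type one (log2 fold change -0.57 ± 0.17 SE, edgeR adjusted p = 0.088). At 7736 bases its neighbours had a median of 0.33, and 1.8% of them were lower, the lowest share of any factor.

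Eif4g1, the main eIF4G, was at 180, 183 and 168 CPM in wild type and at 238, 196 and 221 CPM in C234W, the single factor whose C234W values all lay above (0.30 ± 0.14 SE, edgeR adjusted p = 0.22). Beside genes of its length it was ordinary, with 60.0% of neighbours lower. Eif4g3, the third scaffold, had -0.039, from 215.9 ± 3.26 CPM in wild type and 210.1 ± 3.98 CPM in C234W (SD, n = 3), with groups just apart. The ratio of Eif4g1 to Eif4g2 per kb was 0.167, 0.162 and 0.127 in wild type and 0.291, 0.254 and 0.283 in C234W, without overlap. That is a difference of 0.87 on the log2 scale (exact two-sided permutation p = 0.10, the smallest possible, and 0.35 after adjustment over the 7 ratios).

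**Figure D5:**
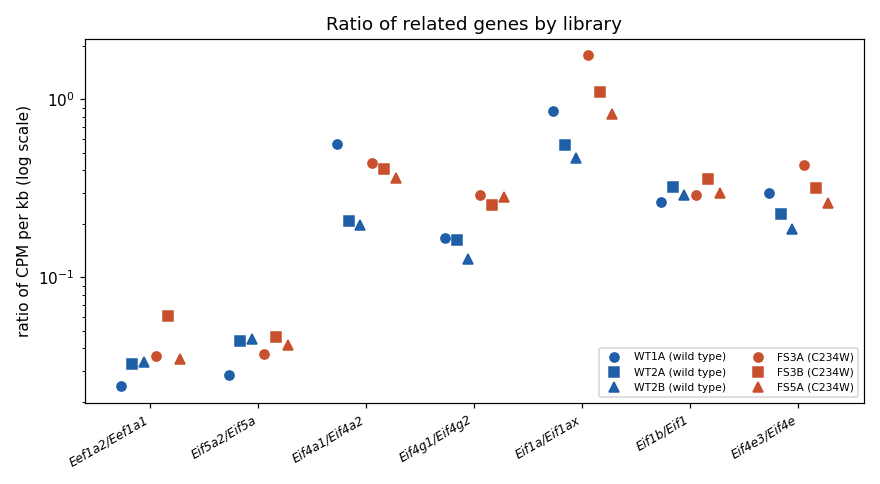
Ratio of the CPM per kb of 7 pairs of related factors in each library (y axis, log scale; blue wild type, orange C234W, 1 point per library). For Eif4g1 over Eif4g2 and Eef1a2 over Eef1a1 the points of the genotypes are apart, and for the other 5 pairs they overlap.

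Of the helicases, Eif4a3, a core component of the exon junction complex and not of eIF4F, stood at 94.4, 85.7 and 89.4 CPM in wild type and at 60.2, 62.2 and 59.8 CPM in C234W, without overlap (-0.565 ± 0.13 SE, edgeR adjusted p = 0.062). Eif4a2, the helicase abundant in brain, stood at 332, 517 and 506 CPM and at 320.1, 311 and 364 CPM (-0.44 ± 0.20 SE, edgeR adjusted p = 0.20), with WT1A inside the C234W range. Eif4a1 stood at 109.7, 62.8 and 58.3 CPM and at 82.0, 74.1 and 77.4 CPM (0.018 ± 0.24 SE), where WT1A was above and the other wild-type libraries below every C234W library. Without WT1A its log2 fold change was 0.37 (edgeR adjusted p = 0.093). Eif4b, the cofactor of eIF4A, stood at 475.5, 524 and 582 CPM and at 287, 309.9 and 408 CPM (-0.655 ± 0.18 SE, edgeR adjusted p = 0.081), without overlap, and 3.4% of its neighbours in length were lower. Eif4h, the related cofactor, had -0.22 with overlap.

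The 3 tested cap-binding proteins all overlapped between genotypes. Eif4e was at 95.4, 94.3 and 91.4 CPM in wild type and at 104, 88.5 and 76.9 CPM in C234W (-0.062 ± 0.15 SE). Eif4e2, a cap binder linked to repression, had -0.13 ± 0.15 SE. Eif4e3, at 14.2, 10.8 and 8.53 CPM and at 22.4, 14.1 and 10.1 CPM, had 0.48 ± 0.32 SE (edgeR adjusted p = 0.37).

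The regulators that bind eIF4E were 4 genes with a median of 0.16. Eif4enif1, which carries eIF4E into the nucleus and to RNA granules, stood at 68.4, 84.2 and 90.6 CPM in wild type and at 58.1, 58.7 and 60.4 CPM in C234W, without overlap (-0.46 ± 0.16 SE, edgeR adjusted p = 0.12). Eif4ebp2, the 4E-BP abundant in brain, stood at 21.4, 19.8 and 20.3 CPM and at 20.6, 21.3 and 19.3 CPM (-0.009 ± 0.16 SE). Eif4ebp1 had 1.02 ± 0.56 CPM in wild type and 1.38 ± 0.35 CPM in C234W, and Eif4ebp3 had 9.52 ± 3.53 CPM and 12.1 ± 4.19 CPM (SD, n = 3). The 3 4E-BP genes, which hold eIF4E from eIF4G when mTORC1 is inactive, all overlapped between genotypes.

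The rest of the translation machinery was counted from lists of known members, beside 13.5% of all genes lower and 11.9% higher at an unadjusted p under 0.05. Kinases and methyltransferases of the factors had 9 tested genes, of which 0 passed the adjusted threshold and 1 was higher at an unadjusted p under 0.05: Eif2ak4, the sensor of uncharged tRNA, at 28.8, 29.6 and 23.9 CPM in wild type and 50.5, 36.4 and 36.2 CPM in C234W (0.58 ± 0.19 SE, edgeR adjusted p = 0.11). Termination, recycling and poly(A)-binding genes numbered 14 tested, with 0 past the adjusted threshold, 6 lower and 1 higher at an unadjusted p under 0.05, and a median of -0.28. Pabpc4, a cytoplasmic poly(A)-binding protein, stood at 19.9, 27.4 and 26.6 CPM and at 12.04, 12.6 and 15.2 CPM (-0.89 ± 0.20 SE, edgeR adjusted p = 0.058). In both genes the genotypes did not overlap.

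The 22 cytosolic aminoacyl-tRNA synthetase genes had a median of -0.056, close to that of all genes, with 3 lower and 0 higher at an unadjusted p under 0.05, a share near that of all genes, and 0 past the adjusted threshold (edgeR). The one with the smallest p was Aimp1, a scaffold of the multisynthetase complex (-0.58 ± 0.16 SE, edgeR adjusted p = 0.080). Of 8 genes that modify eIF5A or eEF2 by hypusine or diphthamide, 1 was lower and 1 higher at an unadjusted p under 0.05, and Dohh, which completes hypusine on eIF5A, had -0.755 ± 0.17 SE (edgeR adjusted p = 0.056). The 10 mitochondrial translation factors had a median of 0.11, on the other side of 0 from the cytosolic factors, and their smallest p was that of Gfm2, a factor of mitochondrial ribosome recycling (0.70 ± 0.20 SE, edgeR adjusted p = 0.088). The 13 genes of mTORC1, S6 kinase and MNK had a median of -0.23, with 1 lower and 3 higher at an unadjusted p under 0.05, and Tsc1, a brake on mTORC1, had 0.685 ± 0.21 SE (edgeR adjusted p = 0.095). In each of these lists edgeR called 0 genes past the adjusted threshold.

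Ribosomal protein genes, whose mRNAs share the TOP class, had lower medians than the factors. Of 47 tested large subunit genes 14 fell, with a median of -0.81, and of 31 small subunit genes 14 fell, with a median of -0.915, where 1.28% of all tested genes fell. Their transcripts are shorter, at 766 and 608 bases in the median, and with the length trend removed their medians were -0.435 and -0.46, beside -0.26 for the factors. The median deviation of the factors from their mean over the 6 libraries was 0.15, 0.20 and 0.23 for wild type and -0.20, -0.19 and -0.21 for C234W on the log2 scale. The same deviations after subtracting genes of like length were 0.11, 0.12 and 0.14, and -0.14, -0.16 and -0.13. By either measure each C234W library lay below each wild-type library. Rod and Müller glia markers were also lower in C234W, the latter summing to between 3240 and 4331 CPM in wild type and to between 2520 and 2907 CPM in C234W (3 of 3 markers measured). Markers of erythrocytes (116 to 219 CPM in wild type, 57.5 to 79.5 CPM in C234W), skeletal muscle (5.84 to 7.86 and 1.92 to 2.62 CPM) and lens (1.99 to 2.96 and 0.759 to 1.64 CPM) were lower without overlap too, and those of vascular endothelium (18.7 to 32.4 and 35.8 to 44.95 CPM), like those of bipolar cells, were higher. The part of these shifts in the level of the factors was not tested.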

How the data were processed

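Poly-A RNA from whole retina was sequenced in strand-specific libraries, per the labels' protocols. Per the series' design text, STAR aligned the reads to mm10 and HOMER (4.11) took unique exonic tags of 1 isoform a locus; the STAR version was 2.7.8a, per the submitters' processing notes. The values deposited by the authors are estimated counts per gene in steps of 0.5, not normalized, per the file headers; 28.3 to 32.1% per library were not whole, and counts were rounded for the tests. Counts in genes ran from 14184093 to 19298613 per library. Of 25124 models 5728 had 0 counts, and 0 sample columns were left out. No 2 libraries agreed within sampling noise (smallest chi-square per degree of freedom 8.92, WT2A and WT2B).

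Genotypes were compared with edgeR (4.0.16, R 4.3.3): filterByExpr, TMM, robust quasi-likelihood test, no covariate, Benjamini-Hochberg adjustment over 14685 genes, threshold 0.05. Alternatives were DESeq2 (1.42.0), limma-voom (limma 3.58.1), other scalings, filters and thresholds, no robust dispersion, unrounded counts, a loess length offset (span 0.3), other numbers of like-length genes, summed libraries, and leaving out each library. The scripts were tested on simulated data, where edgeR recovered 35.7% of 2-fold changes and DESeq2 54.1%. Level is compared between genes only per kb. Per-library deviations used log2(CPM + 0.5). Ratios of related genes were compared by exact permutation.

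The text names the factors past the threshold, in each role those with the highest level per kb, the smallest p and the highest and lowest fold change, the related pairs and triples, and in each pathway list the gene with the smallest p; other factors are given so that each of the 57 is accounted for. The factors, roles, lists and tests were chosen with earlier results of these data known. Start windows came from RefSeq on GRCm38.p6.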

Additional observations from a re-analysis of the deposited data

How the results depend on the processing

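The number of factors called lower, 2 by edgeR, was 19 with DESeq2 (7.24% of all genes) and 4 without a filter on low counts (272 of 19140 genes). It was 0 with RLE scaling, with upper-quartile scaling, with total-count scaling, with the length trend removed and with libraries of the same number summed, settings under which edgeR also called 0 of all genes. It was 19 at an adjusted p under 0.1 and 0 under 0.01. The share of all genes at these 2 thresholds was not counted, so these numbers cannot be read against a background. Leaving out 1 library gave 0 to 26, with 26 for WT1A and 0 for each of the others. Without WT1A edgeR called 9.39% of all genes lower. Without each of the others it called 0 of all genes, except for 4 without FS5A. The number called higher was 0 in every setting except without WT1A (range 0 to 1). The median log2 fold change of the factors, -0.36, ran from -0.45 to -0.34 on leaving out 1 library, was -0.26 with the length trend removed and -0.18 with total-count scaling, which moved the median of all genes from 0.023 to 0.205. The median difference from genes of like length, -0.26, was -0.29 without the filter and ran from -0.29 to -0.255 on leaving out 1 library. Small fold changes turned sign. Total-count scaling turned 9 factors positive, Eif2b1, Eif2b3, Eif2d and Eif5b among them; of the others, Eif3c was 0.18, Eif4e 0.12, Eif4e2 0.061, Eif4ebp2 0.17 and Eif4g3 0.14; with upper-quartile scaling Eif3c and Eif4ebp2 were both 0.005; with the length trend removed Eif4ebp2 was 0.14 and Eif5 -0.051; with libraries of the same number summed Eif4a1 was -0.14. Leaving out 1 library gave -0.17 to 0.15 for Eif3c, -0.145 to 0.37 for Eif4a1, -0.18 to 0.037 for Eif4e, -0.041 to 0.029 for Eif4ebp2 and -0.030 to 0.155 for Eif5. The cause of these differences was not tested. No paired analysis was possible because the deposited columns carry no replicate number of the labels. With 3 libraries per genotype the adjusted p-values of the factors sit close to the threshold, and which factors pass it is not settled by these data.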
